A study of Homo sapiens with 8 samples.

Results

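TCF21, FOXF1, OSR1, HOXA5, TBX5, TBX4, MEOX2 and MEOX1 are 8 transcription factors that mark or pattern the mesenchyme of the lung. They were taken by name from the 60666 genes of a count table whose Ensembl identifiers were matched to symbols, and each name matched 1 identifier. They were chosen by name, with earlier measured values of these libraries known, among them the level of MEOX2 in the lines and that of TCF21 with TGF-β1. Which further values bore on the choice is not recorded. Genes entered the tests when their level averaged 1 CPM or more over the libraries (CPM are counts scaled to a common library size), which 6 of the 8 genes and 13493 genes in all did. MEOX1 and TBX4 did not pass and are described by their raw counts.

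RNA was measured by bulk RNA sequencing of MRC5, an established human lung fibroblast line. All cells had been transduced with a short hairpin RNA, either the control one (shMock) or one directed at MTHFD2, an enzyme of mitochondrial folate metabolism (shMTHFD2). Each line was sampled as control or with Tgfb1 (TGF-β1, a cytokine under which fibroblasts become myofibroblasts, which contract and lay down matrix). The labels give 4 ng, with no volume, and 24 h. The 4 groups, shMock control, shMock TGF-β1, shMTHFD2 control and shMTHFD2 TGF-β1, had 2 libraries each. Only 1 hairpin targets MTHFD2, so effects of lower MTHFD2 and other differences between the lines cannot be told apart. The labels do not say whether the libraries of a group came from separate cultures, so p-values measure the spread between libraries, which may be technical. In 3 of the shMTHFD2 libraries the genotype label names another gene number than the title does, and the titles were used.

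The factors belong to different families and act at different steps of lung development. TCF21 is a basic helix-loop-helix factor of lung, heart and kidney mesenchyme that marks lipid-storing interstitial fibroblasts in the lung. FOXF1 is a forkhead factor switched on in lung mesenchyme by Hedgehog signals from the epithelium, and its loss disturbs the growth of lung vessels. OSR1 is a zinc finger factor of early foregut mesenchyme. HOXA5 is a homeobox factor that sets regional identity along the airway and lung. TBX4 and TBX5 are a related pair of T-box factors that specify lung mesenchyme and maintain the growth factor signals behind branching. MEOX1 and MEOX2 are homeobox factors first known from somites, and MEOX2 also restrains the growth of vascular cells.

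The libraries held between 18162738 and 22221927 counts. The log CPM of replicates had correlations of 0.984 to 0.988, and their counts differed by more than sampling noise, with a chi-square per degree of freedom of 6.3 to 10.6. Levels below are CPM scaled with TMM factors, edgeR's correction for differences in RNA composition. MTHFD2 itself was at 58.8 and 57.1 CPM in shMock control, 14.9 and 18.7 in shMTHFD2 control, 256 and 258 in shMock TGF-β1 and 93.8 and 91.9 in shMTHFD2 TGF-β1. Every library was thus on the side its hairpin label names at each treatment, although treated shMTHFD2 cells held more MTHFD2 RNA than untreated shMock cells. All 8 fibroblast markers were measured, with a summed level of 30150 to 53621 CPM over the libraries. The 5 epithelial markers summed to at most 0.23 CPM, and PECAM1 and CDH5 (endothelium), CD3E (T cells), DES (muscle) and WT1 (mesothelium) were at 0 in all libraries.

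The 2 promoters of TCF21 and TBX5 are shown because both genes were lower with TGF-β1 in both lines, and that of MEOX2 because it had the largest difference between the lines among the 6 tested genes. Each is the stretch of 250 bases upstream of a RefSeq transcription start on GRCh38.p14, written 5′ to 3′ on the strand of the gene. Capitals mark matches on either strand to 4 motifs that were searched: the GC box GGGCGG, the Smad CAGA motif CAGAC, the TATA box TATAAA and the E-box CAGCTG of the kind TCF21 binds. The RefSeq table held promoters of 4 of the 8 genes, the other being TBX4.
TCF21 chr6:133888863-133889112 (+ strand): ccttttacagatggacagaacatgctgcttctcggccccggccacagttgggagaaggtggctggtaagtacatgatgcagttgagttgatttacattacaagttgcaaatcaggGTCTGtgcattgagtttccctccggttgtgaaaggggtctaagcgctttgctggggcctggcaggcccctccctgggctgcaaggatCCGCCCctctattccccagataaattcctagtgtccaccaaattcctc
TBX5 chr12:114408013-114408262 (- strand): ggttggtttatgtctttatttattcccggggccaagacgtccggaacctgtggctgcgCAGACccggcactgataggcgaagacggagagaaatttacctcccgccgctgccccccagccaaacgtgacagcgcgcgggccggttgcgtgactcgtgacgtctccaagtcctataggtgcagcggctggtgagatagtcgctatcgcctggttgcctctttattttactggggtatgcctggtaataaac
MEOX2 chr7:15686684-15686933 (- strand): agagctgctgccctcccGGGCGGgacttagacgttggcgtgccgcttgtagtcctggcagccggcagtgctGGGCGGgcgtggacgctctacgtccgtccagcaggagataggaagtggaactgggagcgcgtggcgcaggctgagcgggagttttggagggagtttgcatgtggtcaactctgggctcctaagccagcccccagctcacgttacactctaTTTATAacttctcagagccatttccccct
TCF21 held 1 CAGAC match at -135 to -131 and 1 GC box at -48 to -43, both on the strand opposite the gene. TBX5 held 1 CAGAC match at -192 to -188, and the window of its other listed start held 1 at -125 to -121. MEOX2 held 2 GC boxes, beginning at -233 and -179, and a TATA box at -29 to -24 on the opposite strand. Of all 35116 promoters in the table, 38.0% held CAGAC, 42.6% a GC box, 14.0% CAGCTG and 10.7% TATAAA in a window of this length. The matches are letters in a sequence and not measured binding sites.

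TCF21 had the largest response to TGF-β1 of the 6 tested genes, and it was lower in both lines. Its level with TGF-β1 was among the values known when the genes were chosen, so it is described with no p-value. The gene lies on chromosome 6, from 133889138 to 133895553 on the + strand (GRCh38, GENCODE 29). In shMock it was at 178 and 177 CPM in the control and at 32.8 and 31.3 CPM with TGF-β1. In shMTHFD2 cells it was at 212 and 203 CPM in the control and at 48.7 and 47.7 CPM with TGF-β1. No treated library came near an untreated one, and within each treatment both shMTHFD2 libraries were above both shMock libraries. With TGF-β1 the log2 fold change of TCF21 was -2.47 in shMock (SE 0.08), 5.54-fold lower. In shMTHFD2 it was -2.11 (SE 0.08), 4.31-fold lower. In these bulk libraries, fewer cells with a transcript and less of it per cell cannot be told apart.

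FOXF1 and OSR1, expressed from the early foregut mesenchyme onwards, were lowered by TGF-β1 in shMock cells and less or not measurably so in shMTHFD2 cells. FOXF1 (chromosome 16, 86510527 to 86515418, + strand) was at 293 and 278 CPM in untreated shMock cells and at 199 and 211 CPM in treated ones. In shMTHFD2 cells it was at 280 and 245 CPM in the control and 263 CPM in both treated libraries. The shMock TGF-β1 libraries were thus the only pair below the range of the other 6. TGF-β1 lowered FOXF1 in shMock to 71.7% of the control level, a log2 fold change of -0.48 (SE 0.08, adjusted p = 0.000368 in edgeR's quasi-likelihood test with Benjamini-Hochberg adjustment over all genes). The other genes too were chosen with results of these libraries known, so their adjusted p-values, here and below, are a description and not independent support. In shMTHFD2 the log2 fold change was 0.00 (SE 0.08, edgeR adjusted p = 0.985), and scaling by library totals alone made it -0.11.

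OSR1 (chromosome 2, 19351485 to 19358653, - strand) was at 39.3 and 37.3 CPM in untreated shMock cells and at 15.1 and 16.9 CPM in treated ones. In shMTHFD2 cells it was at 45.4 and 41.4 CPM in the control and at 37.2 and 32.7 CPM with TGF-β1. As with FOXF1, both shMock TGF-β1 libraries lay well below the other 6. TGF-β1 lowered OSR1 2.40-fold in shMock, a log2 fold change of -1.26 (SE 0.11, edgeR adjusted p = 5.24e-07). In shMTHFD2 it was lower 1.24-fold, a log2 fold change of -0.31 (SE 0.11, edgeR adjusted p = 0.0462). That last call was lost under 7 of 17 alternatives, including DESeq2 (adjusted p = 0.0677) and the absence of shMTHFD2 TGF-β1 replicate 2 (log2 fold change -0.22, adjusted p = 0.30) or of shMTHFD2 control replicate 1 (-0.26, adjusted p = 0.202).

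HOXA5 (chromosome 7, 27141052 to 27143668, - strand) was a low-level gene with wide replicates. In shMock its levels were 8.76 and 6.16 CPM untreated and 5.43 and 2.87 CPM treated. In shMTHFD2 they were 9.77 and 7.60 CPM untreated and 5.41 and 5.13 CPM treated. All 4 treated libraries were below all 4 untreated ones, while the lines overlapped within each treatment. The log2 response to TGF-β1 was -0.84 in shMock (SE 0.29, edgeR adjusted p = 0.0323) and -0.72 in shMTHFD2 (SE 0.28, edgeR adjusted p = 0.0760), the latter short of the threshold of 0.05. In shMTHFD2 it passed in 7 of 17 alternatives, among them no filter on low counts (adjusted p = 0.0161), only the groups compared (0.0261) and the absence of shMock TGF-β1 replicate 1 (0.0396) or 2 (0.0373). The call in shMock was lost without shMock control replicate 1 (log2 fold change -0.56, adjusted p = 0.242) or shMock TGF-β1 replicate 2 (-0.46, adjusted p = 0.264).

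Of the T-box pair, TBX5 was expressed and fell with TGF-β1 in both lines, and TBX4 was at the limit of detection. TBX5 (chromosome 12, 114353931 to 114408442, - strand) was at 61.9 CPM in both shMock control libraries and at 60.8 and 61.8 CPM in shMTHFD2 control. With TGF-β1 it was at 39.9 and 36.5 CPM in shMock and at 39.0 and 47.4 CPM in shMTHFD2. The lines overlapped with TGF-β1 and lay between 60.8 and 61.9 CPM without it, while every treated library was below every untreated one. The log2 fold change with TGF-β1 was -0.70 in shMock (SE 0.10, edgeR adjusted p = 6.65e-05) and -0.51 in shMTHFD2 (SE 0.10, edgeR adjusted p = 0.00133).

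TBX4 (chromosome 17, 61452404 to 61485110, + strand) had 6 and 0 counts in shMock control, 1 and 1 in shMock TGF-β1, 2 and 0 in shMTHFD2 control and 6 and 6 in shMTHFD2 TGF-β1. A library would need 3 counts, 0.13 to 0.17 CPM, to be told from 0. With TGF-β1, 12 counts in shMTHFD2 against 2 in shMock gave a ratio of 5.89 with an exact binomial 95% interval of 1.31 to 54.2. Such intervals cover counting error only, and reads without molecular identifiers are not independent molecules. Without the filter on low counts TBX4 was called in no comparison, with edgeR adjusted p from 0.562 to 0.874.

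MEOX2 and MEOX1 differed from each other in their order across the groups, and MEOX1 stayed below 1 CPM in all libraries. MEOX2 (chromosome 7, 15611212 to 15686812, - strand) was at 1.80 and 2.12 CPM in shMock control and at 5.56 and 8.22 CPM in shMTHFD2 control. With TGF-β1 it was at 1.17 and 0.52 CPM in shMock and at 4.70 and 2.29 CPM in shMTHFD2. All 4 shMTHFD2 libraries lay above all 4 shMock libraries, and in each line both treated libraries lay below both untreated ones. The log2 response to TGF-β1 was -1.19 in shMock (SE 0.47, edgeR adjusted p = 0.0617) and -0.98 in shMTHFD2 (SE 0.38, edgeR adjusted p = 0.0827), neither past the threshold. The response passed in 6 of 17 alternatives in shMock, among them DESeq2 (adjusted p = 0.0469) and the absence of shMock TGF-β1 replicate 1 (log2 -1.90, 0.0365) or of shMTHFD2 TGF-β1 replicate 1 (0.0390) or 2 (0.0362). In shMTHFD2 it passed in 4 of 17, among them the absence of shMTHFD2 TGF-β1 replicate 1 (log2 -1.59, 0.0198).

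MEOX1 (chromosome 17, 43640388 to 43661954, - strand) had 0 and 1 counts in shMock control, 14 and 6 in shMock TGF-β1, 0 and 0 in shMTHFD2 control and 8 and 0 in shMTHFD2 TGF-β1. It was the only one of the 8 with more counts after TGF-β1 in both lines. In shMock, 20 counts against 1 gave a ratio of 21.4 with an exact binomial 95% interval of 3.42 to 887. In shMTHFD2, 8 counts against 0 made it at least 2.57-fold higher against a floor of 3 counts over the group, and all 8 came from 1 library. Without the filter on low counts the edgeR adjusted p was 0.105 and 0.176.

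**Figure D1:**
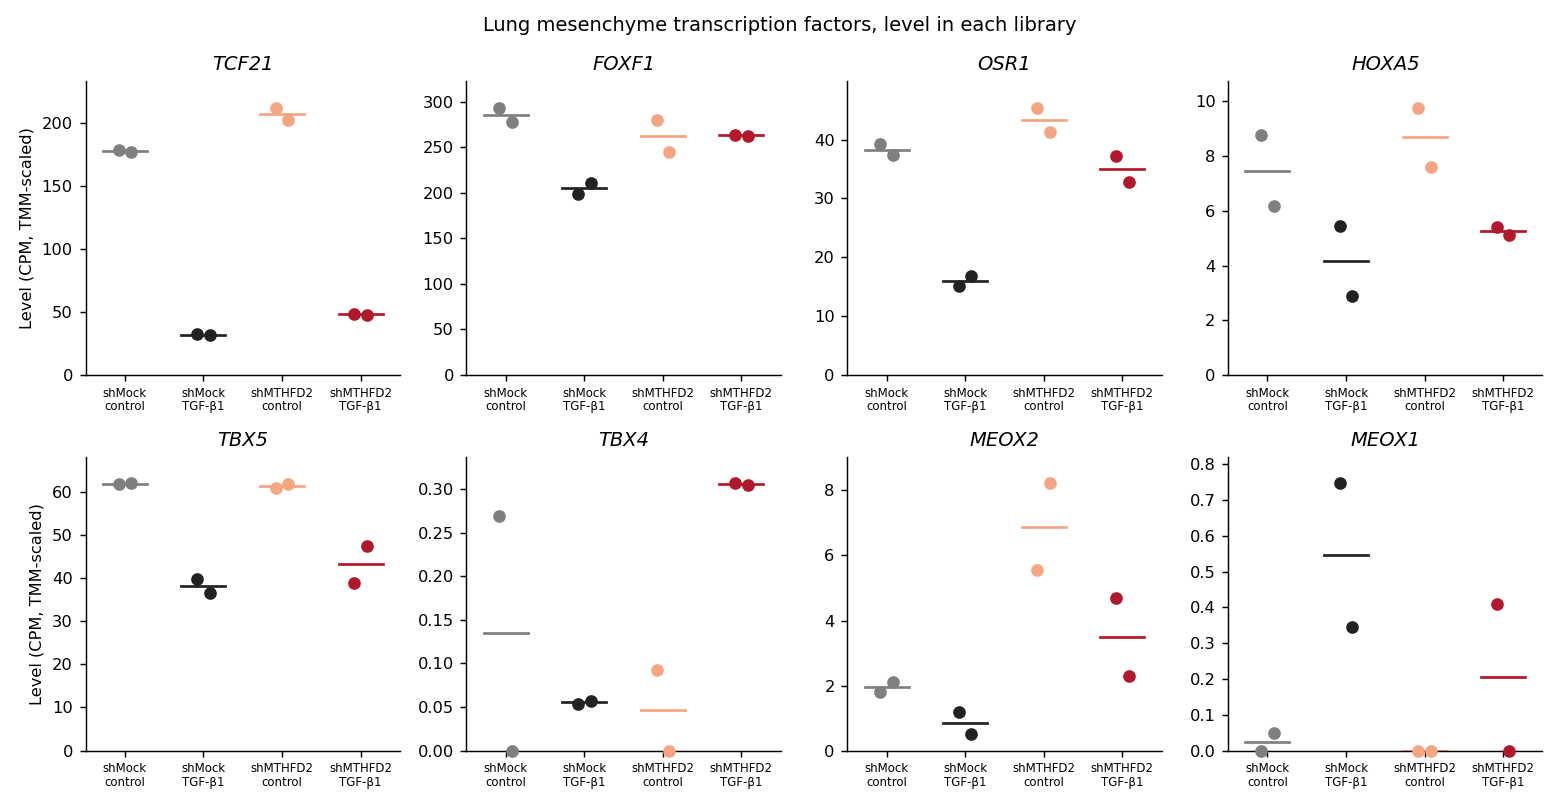
Level of each gene in every library, in CPM scaled with TMM factors on linear axes that start at 0, by group (points are libraries, lines are means of 2). TCF21, HOXA5, TBX5 and MEOX2 are lower in the treated libraries of both lines, OSR1 and FOXF1 stand lowest in shMock TGF-β1, and TBX4 and MEOX1 stay below 1 CPM.

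Counted together, 5 of the 6 tested genes were called lower with TGF-β1 in shMock (TCF21, FOXF1, OSR1, HOXA5 and TBX5), beside 18.1% of all tested genes called lower. The median log2 fold change was -1.02 over the 6 genes and -0.02 over all tested genes. In shMTHFD2, 3 of 6 were called lower (TCF21, OSR1 and TBX5), beside 11.0% of all tested genes, with a median of -0.61 against -0.01. The groups did not overlap for 6 of 6 genes in shMock and for 5 of 6 in shMTHFD2, FOXF1 being the exception. The share of all tested genes without overlap is not given here, so nothing is read from these 2 counts. The genes were chosen with such results known, so these shares describe the set and test nothing. Markers of other cell types moved with the treatment too. The 5 endothelial markers summed to 96.8 to 110 CPM without and 40.8 to 48.9 CPM with TGF-β1 over both lines, from TEK and KDR, with PECAM1 and CDH5 at 0. The 3 immune markers summed to 74.5 to 106 CPM without and 46.8 to 58.5 CPM with it, nearly all CD68. The 5 smooth muscle and pericyte markers summed to 507 to 551 CPM without and 657 to 694 CPM with it. Most of that sum was PDGFRB, which fibroblasts also express, at 420 to 452 CPM without and 598 to 636 CPM with TGF-β1, while CSPG4 was at 80 to 106 CPM without and 50.9 to 58.2 CPM with it, MYH11 was at 0.255 CPM or less and DES was at 0. The 4 mesothelial markers summed to 4.1 to 5.2 CPM in all libraries. Their part in the result was not tested. Scaling by library totals alone shifted the median of all genes to -0.16 in shMock and -0.12 in shMTHFD2. It turned the split of higher and lower genes from 2333 and 2443 to 1570 and 3932 in shMock, and from 1725 and 1489 to 1222 and 2455 in shMTHFD2.

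The difference between the TGF-β1 responses of the lines was computed as an interaction. It is also the difference between the line contrasts with and without TGF-β1, in which earlier results were known, so it is described for the 6 genes with no p-value. OSR1 had the largest value, its log2 response being 0.95 less negative in shMTHFD2 than in shMock (SE 0.16), and 0.82 to 1.04 less negative over 16 alternatives. Fold changes across genes followed GC content, with a Spearman correlation of -0.285 for TGF-β1 in shMock and 0.023 in shMTHFD2. For the lines it was 0.329 with and -0.143 without TGF-β1. OSR1 has a GC content of 55.8%, and its value was 0.82 with the replicate block and GC offsets. The part of GC content in the result was not tested. Across the 4 pairings of a treated with an untreated library, the OSR1 response ran from -0.47 to -0.15 in shMTHFD2 and from -1.38 to -1.15 in shMock. The threshold used for all genes marked 12 of 13493 (0.0889%), with 0.0371% in the direction of OSR1. Of the 6 genes it marked OSR1, a count from which nothing is read, and in 6 of 16 alternatives it did not, which include the absence of shMock control replicate 2, shMock TGF-β1 replicate 1 or 2, shMTHFD2 control replicate 2 or shMTHFD2 TGF-β1 replicate 1.

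The other 5 tested genes had interaction values of the same sign. FOXF1 had 0.48 (SE 0.12), with responses of -0.09 to 0.10 in shMTHFD2 and -0.56 to -0.40 in shMock over the pairings. TCF21 had 0.36 (SE 0.11), with responses of -2.15 to -2.06 against -2.51 to -2.43. TBX5 had 0.19 (SE 0.14), MEOX2 0.22 (SE 0.60) and HOXA5 0.12 (SE 0.40), and the sign of the last 2 turned when single libraries were left out. The pairings of the lines did not overlap for OSR1, FOXF1 and TCF21. The share of all tested genes without such overlap is not given here, so nothing is read from that count.

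**Figure D2:**
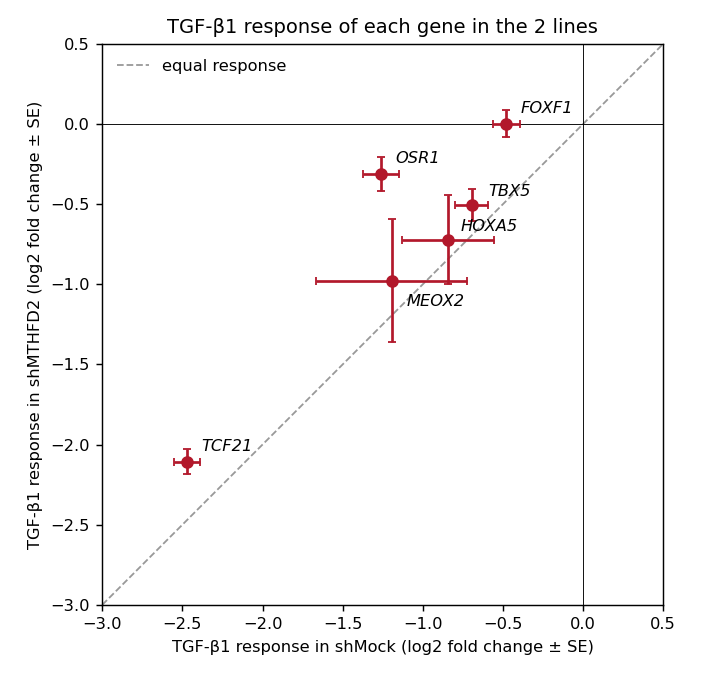
TGF-β1 response of the 6 tested genes in shMock (horizontal axis) and shMTHFD2 (vertical axis), as log2 fold changes with SE bars, and the line of equal response (dashed). OSR1 and FOXF1 lie farthest above the line, by 0.95 and 0.48.

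The lines were compared at each treatment. Since earlier results in these same contrasts were known when the genes were chosen, the values are given as a description, with no p-value. With TGF-β1, the 6 genes had higher fitted levels in shMTHFD2 than in shMock. MEOX2 had the largest log2 difference, 2.03 (SE 0.46, 4.08-fold). OSR1 followed with 1.13 (SE 0.12, 2.19-fold), then TCF21 with 0.59 (SE 0.08), FOXF1 with 0.36 (SE 0.08), HOXA5 with 0.34 (SE 0.29) and TBX5 with 0.18 (SE 0.10). The libraries of the lines did not overlap for TCF21, FOXF1, OSR1 and MEOX2, and did for HOXA5 and TBX5. Without TGF-β1 they also did not overlap for 4 of the 6, among them TBX5 with a log2 difference of -0.01. The share of all tested genes without overlap is not given here, and nothing is read from either count. With TGF-β1, the threshold used for all genes marked TCF21, FOXF1, OSR1 and MEOX2, beside 4.83% of all tested genes called higher. Nothing is read from that count either. Without shMTHFD2 TGF-β1 replicate 1 the MEOX2 difference was 1.41.

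Without TGF-β1, MEOX2 again had the largest line difference of the 6 genes. MEOX2 was higher in shMTHFD2 by 1.81 on the log2 scale (SE 0.40, 3.51-fold), and 1.51 to 2.08 when single libraries were left out. The threshold used for all genes marked 1 of the 6 genes, beside 3.25% of all tested genes called higher, and 0 without shMock control replicate 1 or shMTHFD2 control replicate 2, and nothing is read from these counts. The log2 differences were 0.22 for TCF21 (SE 0.07), 0.22 for HOXA5 (SE 0.27), 0.18 for OSR1 (SE 0.11), -0.01 for TBX5 (SE 0.10) and -0.12 for FOXF1 (SE 0.08). TBX5 turned to 0.05 when scaled by library totals alone. Mitochondrial genes took 6.24% and 7.74% of counts in shMTHFD2 control and 3.83% to 5.51% in the other libraries, and the part of this in the result was not tested. These contrasts share libraries with the TGF-β1 responses above and are not separate evidence. With library totals alone the split of all genes called higher and lower went from 652 and 1110 to 1338 and 717 with TGF-β1, and from 438 and 1105 to 755 and 740 without it.

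**Figure D3:**
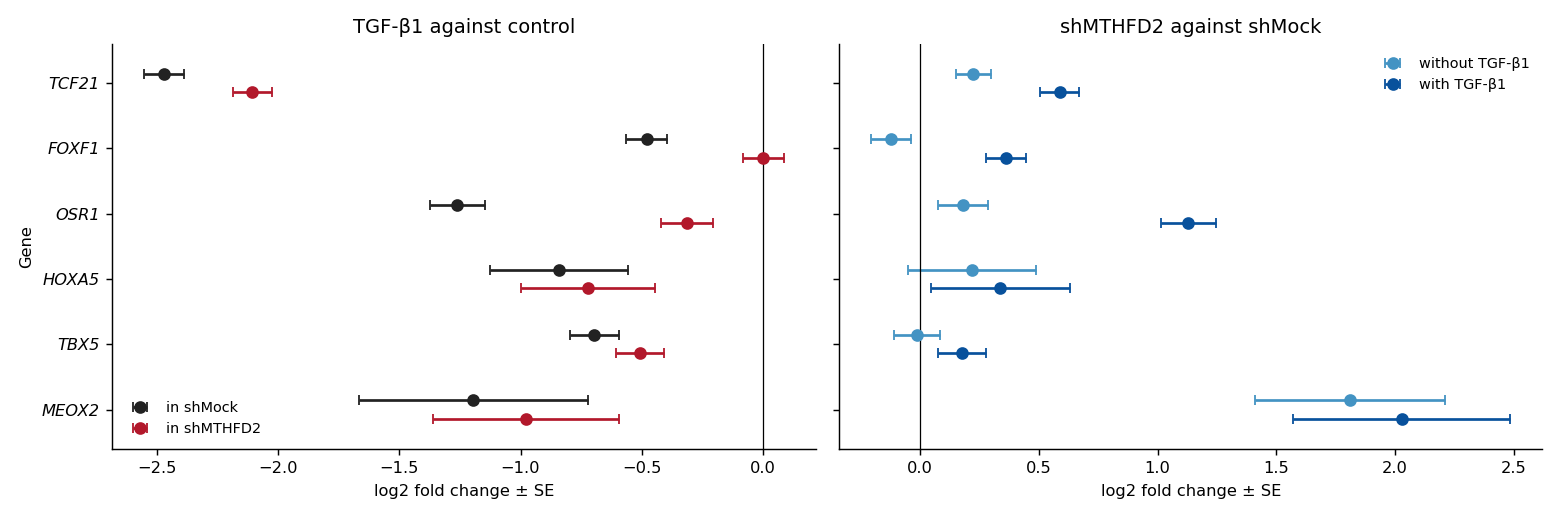
log2 fold changes with SE bars for the 6 tested genes, for TGF-β1 against control in each line (left) and for shMTHFD2 against shMock without and with TGF-β1 (right). On the left TCF21 stands lowest at -2.47 and -2.11, and on the right MEOX2 stands highest at 1.81 and 2.03.

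Relative to shMock control, the group means show how far each gene moved under both changes together. In shMTHFD2 TGF-β1, OSR1 was at 91.3% of the shMock control mean and FOXF1 at 92.1%, compared with 41.8% and 71.7% in shMock TGF-β1. TCF21 was at 27.1% compared with 18.0%, TBX5 at 69.8% compared with 61.7% and HOXA5 at 70.7% compared with 55.6%. MEOX2 was at 178% in shMTHFD2 TGF-β1, 352% in shMTHFD2 control and 43.1% in shMock TGF-β1, so its treated shMTHFD2 cells held more than untreated shMock cells.

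Levels were compared between genes per kilobase of exon (CPM divided by exon length). In shMock control the order was FOXF1 at 81.2 ± 3.1 (SD, n = 2), TCF21 at 39.1 ± 0.2, TBX5 at 14.2 ± 0.01, OSR1 at 7.22 ± 0.26, HOXA5 at 4.37 ± 1.08 and MEOX2 at 0.78 ± 0.09 CPM per kilobase. Each of these 6 was above the next in both libraries, whereas TBX4 (0.034) and MEOX1 (0.009) overlapped. The same first 6 ranks held in shMTHFD2 control, where TCF21 was at 45.6 and MEOX2 at 2.75 CPM per kilobase. With TGF-β1 the order changed at TCF21. In shMock TGF-β1 it was at 7.04 ± 0.22, below TBX5 at 8.76 ± 0.54, and in shMTHFD2 TGF-β1, at 10.6 ± 0.1, it overlapped TBX5 at 9.90 ± 1.37. In shMock TGF-β1, OSR1 (3.01 ± 0.23) and HOXA5 (2.43 ± 1.06) also overlapped.

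Non-coding genes lie beside or across several of these genes, and 4 of 5 listed were tested. FENDRR, transcribed away from FOXF1, and TBX5-AS1 both fell with TGF-β1 in both lines. FENDRR was at 438 and 407 CPM in shMock control, 234 and 265 in shMock TGF-β1, 444 and 474 in shMTHFD2 control and 300 and 315 in shMTHFD2 TGF-β1. Both treated libraries were thus below both untreated ones in each line, also in shMTHFD2, where FOXF1 overlapped. Its log2 response was -0.76 in shMock (SE 0.09, edgeR adjusted p = 5.56e-06) and -0.58 in shMTHFD2 (SE 0.09, edgeR adjusted p = 0.000102). The ratio of FENDRR to FOXF1 CPM was 1.47 to 1.49 in shMock control and 1.59 to 1.93 in shMTHFD2 control. With TGF-β1 it was 1.18 to 1.26 in shMock and 1.14 to 1.20 in shMTHFD2. The difference between the responses of the 2 genes was not tested.

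TBX5-AS1 had log2 responses of -0.65 in shMock (SE 0.08, edgeR adjusted p = 1.90e-05) and -0.47 in shMTHFD2 (SE 0.08, edgeR adjusted p = 0.000535). It was at 1.12 to 1.29 times the CPM of TBX5 in all libraries. The 2 genes share 252 exon bases on opposite strands, and whether the counting used strand is not given in the sources used here, so reads there cannot be told apart. TARID shares 1383 exon bases with TCF21 on the opposite strand. It was at 0.91 to 3.93 CPM, where TCF21 was at 31.3 to 212 CPM. TARID was called lower in shMTHFD2 (log2 -1.25, SE 0.39, edgeR adjusted p = 0.0306), a call lost without any 1 of the 4 libraries compared.

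**Figure D4:**
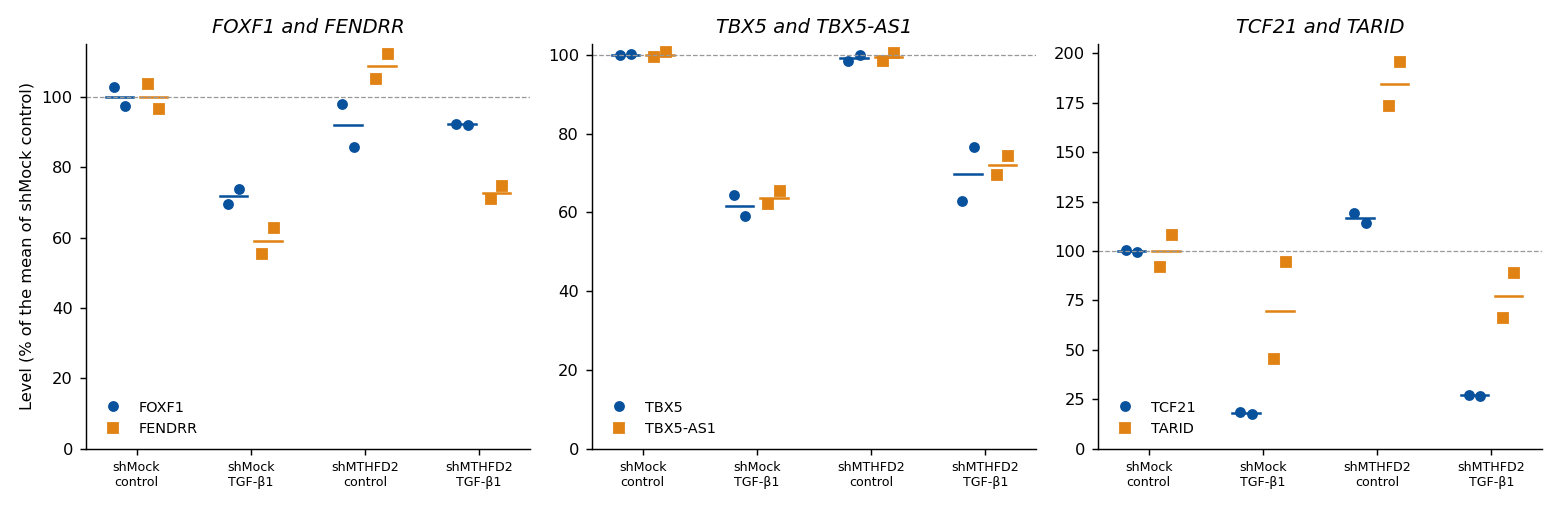
Level of FOXF1, TBX5 and TCF21 (circles) and of the non-coding gene beside or across each (squares), as a percentage of the mean of shMock control, by library (lines are means of 2). In shMTHFD2 TGF-β1, FENDRR lies below its control libraries while FOXF1 lies between its own at 92.1% of shMock control.

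The nearest expressed protein-coding genes on either side were compared, and part of them are given here. MTHFSD, whose start is 19.6 kb from that of FOXF1, had log2 responses to TGF-β1 of -0.09 in shMock and 0.09 in shMTHFD2 (edgeR adjusted p = 0.664 and 0.676). EYA4, 649 kb from TCF21 and the next expressed coding gene on that side, fell by 0.54 and 0.59 on the log2 scale (edgeR adjusted p = 0.00213 and 0.00142). On the other side TBPL1, at 63.0 kb, had 0.15 and 0.19 (edgeR adjusted p = 0.410 and 0.344). RDH14, 797 kb from OSR1, had -0.52 in shMock and -0.53 in shMTHFD2 (edgeR adjusted p = 0.0109 and 0.0143). TTC32, 545 kb from OSR1 on the other side, had -0.49 and -0.65 (edgeR adjusted p = 0.277 and 0.163). HOXA4 and HOXA7, on either side of HOXA5, had -0.09 and -0.66 in shMock, short of the threshold (edgeR adjusted p = 0.887 and 0.0530).

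Close relatives of the 8 genes included several that rose with TGF-β1. Of 12 listed paralogs 6 were tested, of which 2 rose and 1 fell in shMock (median log2 0.01), and 3 rose in shMTHFD2 (median 0.32). Over all tested genes, 17.3% rose and 18.1% fell in shMock (median -0.02), and 12.8% rose and 11.0% fell in shMTHFD2 (median -0.01), which is the background for each list that follows. OSR2, the paralog of OSR1, rose by 1.26 log2 units in shMock (SE 0.20, edgeR adjusted p = 0.000152) and 1.09 in shMTHFD2 (SE 0.19, edgeR adjusted p = 0.000572). MSC (musculin), a relative of TCF21, rose by 1.44 (SE 0.11, edgeR adjusted p = 8.97e-08) and 1.57 (SE 0.11, edgeR adjusted p = 3.71e-08). FOXF2 fell in shMock, with a log2 fold change of -0.33 (edgeR adjusted p = 0.0126), a call lost with offsets for GC content and without shMock control replicate 2 or shMock TGF-β1 replicate 2. TBX2 was the third riser in shMTHFD2, with 0.52 (edgeR adjusted p = 0.00207) beside 0.07 in shMock (edgeR adjusted p = 0.655).

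The remainder of the HOXA cluster gave 0 calls in edgeR and 0 in DESeq2, with 5 of 10 genes tested and median log2 changes of -0.39 in shMock and -0.36 in shMTHFD2 after TGF-β1. At an unadjusted p under 0.05, 2 were lower in shMock and 1 in shMTHFD2. Leaving out shMTHFD2 TGF-β1 replicate 2 gave 1 lower gene in shMock, and leaving out shMTHFD2 TGF-β1 replicate 1 gave 1 in shMTHFD2. HOX cofactors moved in both directions. Of 6 tested, 2 rose and 3 fell with TGF-β1 in shMock (median -0.20, beside 17.3% and 18.1% of all tested genes), and 1 rose and 3 fell in shMTHFD2 (median -0.10, beside 12.8% and 11.0%). MEIS1 rose by 1.0 and 0.66 log2 units (edgeR adjusted p = 6.67e-07 and 5.74e-05), whereas MEIS2 fell by 0.69 and 0.77 (edgeR adjusted p = 0.000298 and 9.65e-05).

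Hedgehog genes, which act upstream of FOXF1 in the embryonic lung, included several that rose with TGF-β1. Of 9 tested out of 11, 4 rose in shMock (median 0.27) and 5 in shMTHFD2 (median 0.44). GLI1, a target and effector of the pathway, rose by 1.49 (SE 0.22, edgeR adjusted p = 8.74e-05) and 1.83 (SE 0.23, edgeR adjusted p = 2.17e-05). When single libraries were left out, 3 to 5 genes were higher in shMTHFD2. The count was 3 without shMTHFD2 TGF-β1 replicate 2 or either shMTHFD2 control library.

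Of 10 listed signals of the lung mesenchyme 7 were tested, and with TGF-β1 3 rose and 1 fell in shMock (median 0.21, beside 17.3% and 18.1% of all tested genes), and 3 rose and 2 fell in shMTHFD2 (median 0.13, beside 12.8% and 11.0%). WNT5A rose by 3.75 and 3.48 log2 units (edgeR adjusted p = 5.09e-13 and 1.08e-12), and WNT2, a Wnt ligand that acts from mesenchyme on lung epithelium, by 1.33 and 1.71 (edgeR adjusted p = 2.01e-05 and 1.90e-06). BMP4 fell by 0.70 and 0.30 (edgeR adjusted p = 2.44e-05 and 0.0261). The BMP4 call in shMTHFD2 was lost without any 1 of the 4 shMTHFD2 libraries. Of 7 retinoid genes tested out of 15, 2 rose and 2 fell in shMock (median -0.24) and 2 rose and 1 fell in shMTHFD2 (median 0.01), and leaving out single libraries took the higher count to 0 in either line.

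Genes of lipid-storing lung fibroblasts, the cell type that TCF21 marks, fell where they were called with all 8 libraries. Of 6 tested out of 11, 5 fell with TGF-β1 in shMock (median -0.83, beside 18.1% of all tested genes and a median of -0.02). In shMTHFD2 3 fell (median -0.49, beside 11.0% and -0.01). With all 8 libraries 0 were higher in edgeR, in DESeq2 or at an unadjusted p under 0.05. In shMTHFD2 this did not hold in every fit with 1 library left out, and the counts of falling genes moved in both lines. PPARG, the master regulator of fat cell genes, fell by 1.70 (SE 0.14, edgeR adjusted p = 1.29e-07) and 1.20 (SE 0.13, edgeR adjusted p = 6.30e-06). CD36, a fatty acid transporter at 3.05 CPM or less in all libraries, fell by 2.09 and 3.52 (edgeR adjusted p = 0.00505 and 0.000133), the first call being lost without shMock TGF-β1 replicate 1. Of 10 TGF-β1 response markers listed, 10 rose in each line, ACTA2, the smooth muscle actin of myofibroblasts, by 3.66 and 3.23 log2 units (edgeR adjusted p = 3.16e-13 and 1.08e-12).

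Between the lines, few of the listed genes were called and most calls were lost when single libraries were left out. With TGF-β1, shMTHFD2 was higher than shMock in 2 of 6 paralogs (TBX2 by 0.45 and TBX3 by 0.34 log2 units, edgeR adjusted p = 0.0128 and 0.0117) and in 2 of 9 Hedgehog genes (the receptors PTCH1 by 0.49 and BOC by 0.37, edgeR adjusted p = 0.0132 and 0.0205). Leaving out shMTHFD2 TGF-β1 replicate 1 took both counts to 0. WNT5A was lower by 0.41 (edgeR adjusted p = 0.00476), a call lost without the same library. Without TGF-β1, MEIS2 was higher by 0.53 (edgeR adjusted p = 0.00637, lost without shMock control replicate 2 or shMTHFD2 control replicate 1). The interaction was called in 0 of the 60 listed genes tested by edgeR and in 1 by DESeq2, with 12 at an unadjusted p under 0.05.

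The genes whose log2(CPM + 1) ran closest to each member over the 8 libraries were listed as a description, since all libraries share the same 4 groups. TCF21 ran closest to TSPAN10, IL6R and PRKAR2B (Pearson r of 0.998, 0.998 and 0.998, 8 libraries). FOXF1 ran closest to CRAT, KIF7 and SHROOM1 (r of 0.979, 0.979 and 0.976). For OSR1 the nearest were ISOC1, KCNE4 and PGAP6 (0.987, 0.978 and 0.977), and KCNE4 showed the same dip, at 42.0 and 38.6, 20.9 and 20.8, 50.1 and 44.3, and 36.5 and 31.6 CPM in shMock control, shMock TGF-β1, shMTHFD2 control and shMTHFD2 TGF-β1. TBX5 ran closest to SRD5A1, GM2A and NHSL1 (0.990, 0.988 and 0.987), HOXA5 to PIGX, SLC50A1 and GLE1 (0.961, 0.953 and 0.952) and MEOX2 to MED28, TTC28 and ATPAF1 (0.993, 0.975 and 0.970).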

How the data were processed

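The authors deposited 1 table of whole-number read counts per Ensembl gene for 8 libraries of MRC5 cells. Per the submitters' processing notes, the build was GRCh38 and the tools included DESeq2 1.32.0 and STAR 2.7.1a, with no roles named. How reads were counted, on which annotation and with or without strand, is not given in the sources used here. On the labels, the extraction text also speaks of a different cell line and hairpin, and untreated samples carry the treatment text as well. Groups were taken from the sample titles.

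Of 60666 identifiers, 60437 were given a symbol and 58420 are in GENCODE 29. The 13493 genes whose mean reached 1 CPM were tested with edgeR 4.0.16 in R 4.3.3, with TMM factors, 1 mean per group, all 8 libraries in the fit (4 residual degrees of freedom) and Benjamini-Hochberg adjustment over all tested genes at 0.05. The standard error is the log2 fold change divided by the root of the F statistic, an approximation. The common biological coefficient of variation was 8.79%. On simulated data for shMTHFD2 against shMock with TGF-β1, in 13417 genes, 72 of 100 genes changed 2-fold and 92 of 99 changed 4-fold were recovered, with 16 false calls. Ratios of low counts have exact binomial 95% intervals from the summed counts. Alternatives were edgeR's median-of-ratios factors, library totals, other filters, DESeq2 1.42.0, a replicate block, offsets for GC content, only the groups compared, and each library left out. Each list's higher and lower genes were named by fold, at most 2 in each direction, and neighbours and most similar genes by position and by Pearson r. The TGF-β1 values of TBX2 and the levels of KCNE4 were chosen after they were seen. The 8 genes and the other gene lists were chosen with earlier results of these data known. Promoter sequences are from RefSeq (GRCh38.p14). A result for 1 listed gene is not reported here.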

Additional observations from a re-analysis of the deposited data

Results flagged for a closer look

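The TGF-β1 response of OSR1 was 0.95 log2 units less negative in shMTHFD2 than in shMock, and less negative in all 4 pairings of a treated with an untreated library. It was picked out by the interaction, the difference between the responses of the lines. The genes were chosen with results of the line contrasts known, so no p-value is given and the difference is a description. Groups of 2 libraries allow no check for single outlying libraries.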

How the results depend on the processing

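Over 17 alternatives the log2 response of TBX5 to TGF-β1 was -0.83 to -0.63 in shMock and -0.65 to -0.38 in shMTHFD2. In shMock it was -0.62 to -0.43 for FOXF1 and -1.40 to -1.14 for OSR1. The genes were chosen with results of these data known, so these ranges describe the processing and are no support for the responses. Of all recomputed fold changes of the 6 tested genes, 437 kept their direction and side of the threshold, 25 passed it only in the alternative, 22 no longer passed and 20 changed sign. The cause of each change was not tested.

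Leaving out 1 library at a time moved the number of genes called from 1762 to between 841 and 1820 for the lines with TGF-β1, from 1543 to between 585 and 1681 without it, and from 12 to between 3 and 192 for the interaction. The interaction gave 321 genes with no filter on low counts, 105 with DESeq2 and 7 with the replicate block and GC offsets together. Of the 6 genes, those called higher in shMTHFD2 with TGF-β1 numbered 2 to 4 on leaving out libraries. Without TGF-β1 they numbered 0 to 2, and 2 with library totals alone, with DESeq2, with GC offsets and with the block and GC offsets together. With TGF-β1 in shMTHFD2, 5 genes fell with library totals alone and 5 with only the groups compared, in place of 3. Over all tested genes, those called lower went from 1489 to 2455 with library totals alone and to 1487 with only the groups compared. The 6 genes were chosen with results of these data known, and the share of all genes is not given for each setting. Nothing is read from any count of the 6 genes in this paragraph. The interaction called 2 of the 6 with no filter, 2 with DESeq2, 0 with the block and GC offsets together (OSR1 0.82) and 0 to 2 on leaving out libraries.

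Sign changes concerned values near 0 or wide replicates. For TBX5 between the untreated lines the log2 difference was 0.055 with library totals alone, 0.0028 with GC offsets, 0.0028 with the block and GC offsets together, 0.0075 with only the groups compared and -0.014 to 0.015 on leaving out libraries. For FOXF1 with TGF-β1 in shMTHFD2 it was -0.11 with library totals alone, -0.0024 with GC offsets, -0.0011 with the block and GC offsets together and -0.099 to 0.087 on leaving out libraries. Leaving out libraries gave -0.044 to 0.88 for HOXA5 between the treated lines, and -0.26 to 0.66 for HOXA5 and -0.42 to 0.93 for MEOX2 in the interaction.

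The replicate number in the labels is shared across groups, but no label ties a number to a batch. The differences between replicates 1 and 2 correlated at -0.02 to 0.069 between groups, so the numbers were not taken as pairs. With the number as a replicate block, 1734, 1530, 4753, 3194 and 13 genes were called for the lines with and without TGF-β1, TGF-β1 in shMock and in shMTHFD2, and the interaction. HOXA5 in shMTHFD2 then passed (log2 fold change -0.70, adjusted p = 0.0388).

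With 2 libraries a group, changes under 2-fold in low genes such as HOXA5 and MEOX2 are poorly resolved, and MEOX1 and TBX4 are too shallow to test.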
